A study of Mus musculus with 4 samples.

Results

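The 49 genes described here encode homeodomain or paired-box transcription factors outside the Hox clusters. They were chosen by name, with earlier results of these data known. Their CpG sites were taken from 1000 bases before the transcription start to the end of the RefSeq gene (mm10). In the hippocampus the genes held 10362 of the 2226271 CpG sites with at least 5 reads in both libraries, and in the frontal cortex 48 of 9731 listed CpGs. The DNA came from wild type female offspring of CD-1 mice, an outbred stock. Their mothers had received estriol (E3) at 0.46 mg/ml in DMSO, or DMSO alone (CT), from an implanted pump for 7 days from day 9 of gestation, and the labels give an age of 8 weeks. Each tissue had 1 E3 and 1 CT library, and neither the labels nor the methods say how many mice a library held. No value therefore has a replicate check, and each test compares 2 libraries and not the exposures. DNA methylation was measured by Methyl-MiniSeq, which reads cytosines near TaqαI and MspI sites after bisulfite treatment. A level in a tissue is a mean over its cells, so a change within cells and a change in the mix of cells cannot be told apart. The CpG sites of the 49 genes had a mean of 29.8 reads in E3 and 12.0 in CT, with medians of 26 and 10. Intervals below are 95% Wilson intervals and cover counting error only, since copies of a molecule made by PCR cannot be recognised. Over several sites they also take linked counts as separate.

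Homeodomain and paired-box factors bind DNA and set regional and cell identity in the embryo. Pax6, Emx2 and Lhx2 act in the early cortex, Dlx and Lhx6 in inhibitory neurons, Nkx2-1 in the ventral forebrain, Prox1 in the dentate gyrus, and Cux1 and Cux2 in upper cortical layers. The starts of such genes lie in long stretches rich in CpGs that most tissues keep free of methylation, and Polycomb complexes often occupy them.

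The sequences of 4 stretches are given because regions described below lie in them. They were read from the RefSeq mm10 genome in the direction of the gene, with each CpG in capitals. The Lhx2 stretch is coding exon at chr2:38354621-38354800 (plus strand), where CpGs were higher in E3 in both tissues. The other 3 were lower in E3 in the hippocampus. The Lhx4 stretch is intron at chr1:155742221-155742294 (minus strand), the Prox1 stretch coding exon at chr1:190160743-190160873 (minus strand) and the Lhx6 stretch intron at chr2:36103220-36103314 (minus strand).
Lhx2: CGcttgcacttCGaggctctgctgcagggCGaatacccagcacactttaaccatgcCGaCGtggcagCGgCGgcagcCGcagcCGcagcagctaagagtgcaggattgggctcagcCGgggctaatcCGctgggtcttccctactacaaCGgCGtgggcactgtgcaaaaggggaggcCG
Lhx4: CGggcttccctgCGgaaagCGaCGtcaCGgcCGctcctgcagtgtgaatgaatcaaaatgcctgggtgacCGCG
Prox1: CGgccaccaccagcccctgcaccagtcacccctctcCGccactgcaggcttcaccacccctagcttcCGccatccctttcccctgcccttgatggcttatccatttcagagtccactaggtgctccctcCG
Lhx6: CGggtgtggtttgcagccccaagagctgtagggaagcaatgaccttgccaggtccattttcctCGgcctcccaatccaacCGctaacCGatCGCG

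The 49 genes were little methylated in both hippocampus libraries. Their CpG sites had a mean level of 16.7% in E3 and 17.2% in CT, against 41.8% in each library over the 1621434 sites in the windows of all genes. With reads summed over sites the order turned, at 16.9% in E3 and 15.8% in CT. Sites under 10% in both libraries made up 57.1% of the sites of the 49 genes and 39.5% of those in all gene windows. Promoter sites, within 1000 bases of the start, had means of 3.61% in E3 and 3.59% in CT, exon sites 12.4% and 13.4%, and intron sites 29.4% and 30.1%. The low level reached far into the genes. Between 7500 and 10000 bases from the start the sites of the 49 genes averaged 9.80% in E3 and 12.0% in CT, whereas those of all genes averaged 58.9% and 58.6%. Over the 49 genes the mean level went with gene length, at a Spearman rho of 0.82 in E3 and 0.79 in CT. The points of this description share the same 2 libraries. Cux2 and Cux1, both long genes, had the highest means, with 57.4% in E3 and 56.8% in CT for Cux2 and 51.0% and 49.3% for Cux1. Pou3f3, a short gene of a POU factor of neural progenitors, had 1.70% in E3 and 1.72% in CT.

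**Figure D1:**
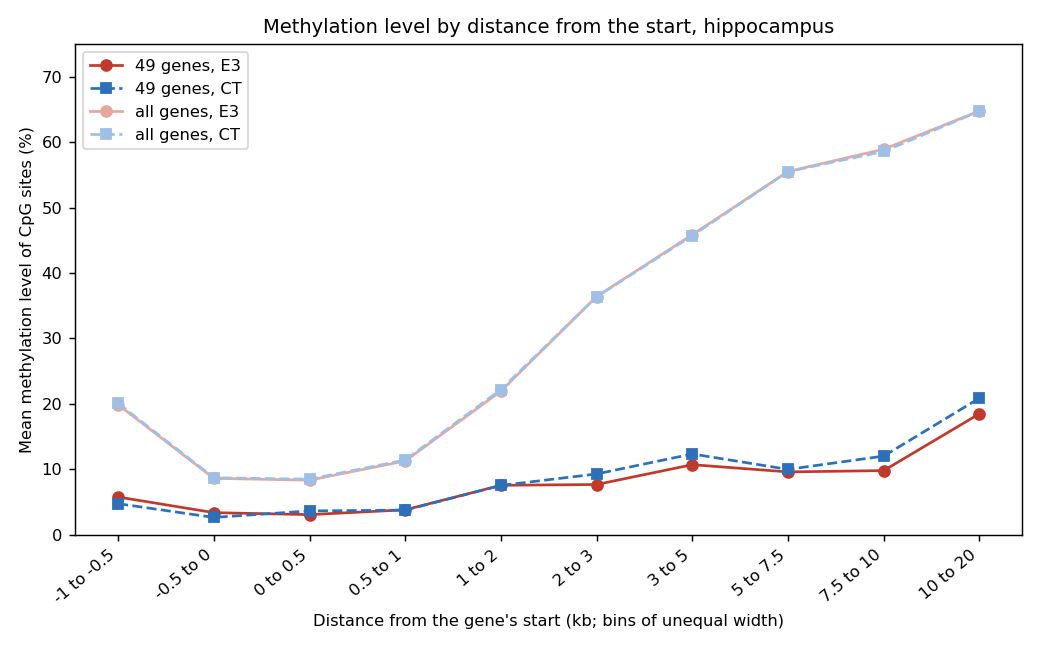
Mean methylation level of hippocampus CpG sites (%) by distance from the gene's start (kb, bins of unequal width), for the 49 genes and for all genes in E3 and CT. From 7.5 to 10 kb the 49 genes stood at 9.80% in E3 and 12.0% in CT, far under all genes, and the lines of E3 and CT ran close together.

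Lower levels in E3 outnumbered higher ones at the called sites of these genes. Called are sites where E3 and CT were 10 percentage points or more apart and a 2-sided Fisher's exact test gave p under 0.05 without adjustment. Of the 10362 sites, 1025 (9.89%) were called, close to the 10.2% of sites in all gene windows. Lower in E3 were 695 sites (6.71%) and higher 330 (3.18%), while 4.79% of the sites in all gene windows were called lower and 5.39% higher. In all gene windows this order depended on the read minimum. At sites with at least 20 reads in both libraries, 14134 sites in all gene windows were lower and 12961 higher, against 158 lower and 80 higher in the 49 genes. In promoters alone 145 of 3319 sites (4.37%) were lower and 28 (0.844%) higher, where 3.69% of all promoter sites were lower and 1.75% higher. At low levels, lower calls outnumbered higher ones in all gene windows too. Sites were grouped by their level over the reads of both libraries, most of which were E3 reads. Under 10%, 1.79% of the sites of the 49 genes were lower and 0.132% higher, against 1.45% and 0.0916% in all gene windows. At 10 to 30%, 21.8% were lower and 6.59% higher, against 15.9% and 7.50%. At 30 to 70%, 21.1% were lower and 15.8% higher, against 16.3% and 19.3%. At 70 to 90% higher calls outnumbered lower ones in both, with 6.09% lower and 14.3% higher, against 6.80% and 14.0%. From 90%, 1 site of the 49 genes was lower and 12 were higher. The unequal depth of the libraries was met by thinning each site to 10 reads in both. This left 5133 sites of the 49 genes with 124 lower and 77 higher calls (3.92%), and 4.33% of the thinned sites in all gene windows were called, with 15113 lower and 18173 higher.

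More lower than higher sites were called in 40 genes, more higher in 4 (Pax8, Cux1, Cux2 and Irx2), and equal numbers in 4 (Pax3, Pbx3, Dlx1 and Tlx3). Of the 14865 genes with at least 40 CpG sites, 45.1% had more lower and 41.2% more higher calls. This comparison is not like for like. The genes described here had a median of 186 sites, against 86 in the 14865 genes. Sites under 10% in both libraries made up 57.1% of the sites described here and 39.5% of those in all gene windows. At levels under 10% lower calls led in all gene windows too, with 1.45% lower and 0.0916% higher. The part of site number and level in the gene counts was not tested. Pou3f2, which encodes a POU factor of cortical neurons, had no called site among 40. By family, Six2, Six3 and Six6, which encode factors of eye, kidney and forebrain development, had 67 lower and 11 higher of 608 sites. The 4 Iroquois genes had 63 lower and 14 higher of 826 sites. The 8 LIM-homeodomain genes had 124 lower and 31 higher of 1608 sites. The Engrailed genes, which mark the midbrain and hindbrain boundary, had 32 lower and 9 higher of 419 sites, and the Emx and Otx genes 40 lower and 11 higher of 529. Lower and higher calls were closer in the 7 paired-box genes, with 133 and 103 of 2038 sites. Meis and Pbx genes, whose products are partners of Hox proteins, had 59 lower and 45 higher of 831 sites. The Cut genes had more higher than lower calls, 64 and 44 of 958 sites. The paired-box, Meis and Pbx, and Cut genes also had higher mean levels. In E3 and CT these were 24.1% and 23.8%, 28.1% and 27.8%, and 54.95% and 53.9%. The families named before them were lower, from the Iroquois genes (3.8% and 5.11%) to the LIM-homeodomain genes (10.2% and 11.7%). In all gene windows higher calls outnumbered lower ones at levels of 30 to 70%, and lower ones led under 30%. The part of the level in the family counts was not tested.

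Single genes with at least 20 sites ranged widely. The highest share of called sites was in Pax8, a gene of thyroid and kidney development, with 12 higher and 4 lower of 64 sites (25%). Pax6 followed with 26 higher and 32 lower of 309 sites (18.8%), then Prox1 with 6 higher and 11 lower of 94 (18.1%) and Meis2 with 25 higher and 30 lower of 325 (16.9%). Six3, a gene of the anterior forebrain and eye, was nearly one-sided, with 3 higher and 36 lower of 239 sites (16.3%) and a mean level of 5.26% in E3 and 11.1% in CT. Pax3 (15.6%), Barhl1 (15.3%), Lhx3 (15.1%), Irx1 (14.5%) and Lhx6 (13.6%) completed the 10 highest shares. Irx1 averaged 4.08% in E3 and 10.6% in CT over its sites, and Lhx6 averaged 15.3% in E3 and 22.0% in CT. At the other end, Dlx1 (1.75%), Gsx2 (2.22%), Dlx6 (3.16%) and Tlx3 (3.70%) stood next to Pou3f2. Dlx1, Gsx2 and Dlx6 act in the ventral forebrain, and Tlx3 specifies excitatory neurons of the dorsal spinal cord.

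**Figure D2:**
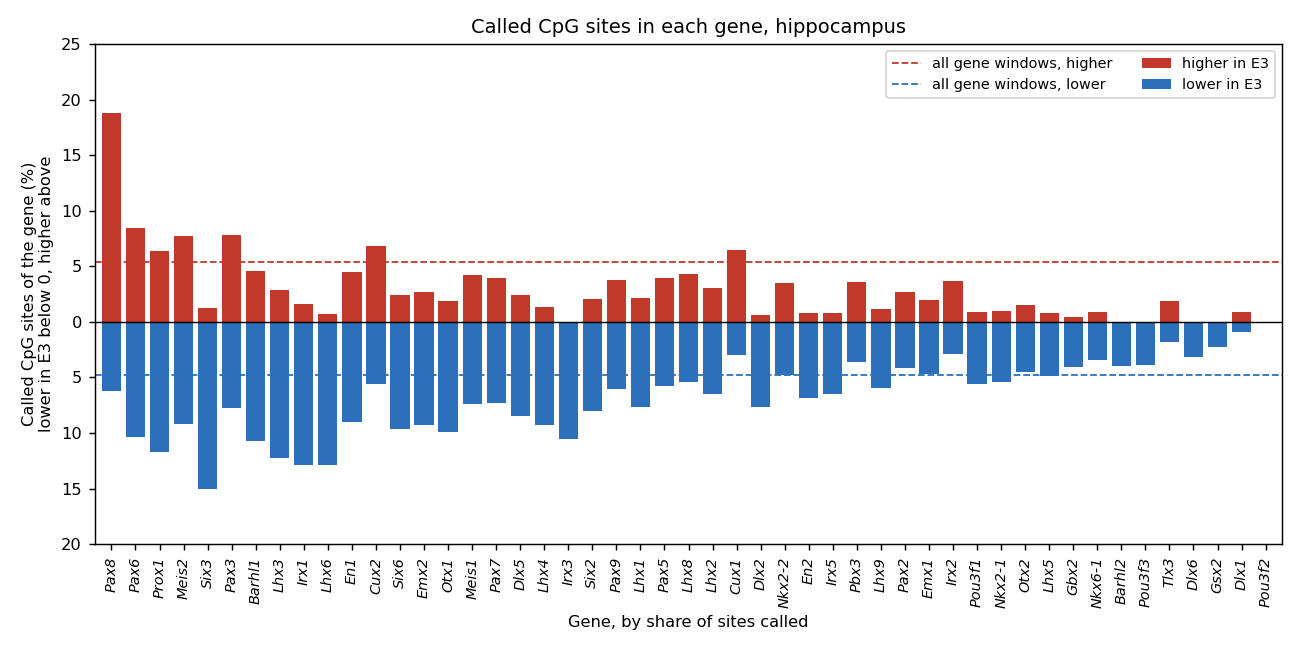
Share of the hippocampus CpG sites of each gene called higher in E3 (above 0) and lower in E3 (below 0), in percent, with the shares in all gene windows as dashed lines (5.39% higher, 4.79% lower). Pax8 had the tallest bar above 0 and Six3 the longest one below it.

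Promoters as a whole stayed low in both libraries. Reads were summed over the sites of each promoter with at least 5 sites, and p-values of Fisher's exact test were adjusted over all 20169 promoters (Benjamini-Hochberg). Since 1 read can cover several sites, these p-values and the intervals take linked counts as separate. Of the 46 promoters tested here, 42 (91.3%) were under 10% in both libraries, with medians of 3.09% in E3 and 3.16% in CT over the 46. Of all promoters 60.8% were under 10% in both, and the median was 3.88% in each library. Lhx3, Lhx4 and Otx2 had no promoter site. A difference of at least 10 points with an adjusted p under 0.05 was met by 1 promoter higher in E3 and by 0 lower, while 4.69% of all promoters were higher and 4.99% lower. Promoters under 10% in both libraries cannot differ by 10 points, so the 42 could not be called and the shares are not like for like. The Pax8 promoter had 63.5% of 501 summed reads (95% interval 59.2 to 67.6) in E3 and 45.8% of 153 (38.1 to 53.7) in CT (adjusted p from Fisher's exact test 0.000894). Of these summed reads, 333 in E3 and 70 in CT lay in 1 region of 4 CpGs on 1 strand, described below. When each of the 15 sites of the promoter counted once instead, the difference was -3.43 points, so the direction of Pax8 depended on the weight of its deeper sites.

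With any size of difference, an adjusted p under 0.05 was met at 12 of the 46 promoters, 4 lower and 8 higher, Pax8 included. Of all promoters 14.4% were lower and 15.9% higher by this measure. The lower ones were those of Irx5, Six2, Irx1 and Otx1. Each of these 4 holds a whole region of neighbouring called CpGs, counted below. Promoter and region share reads and are not separate findings. The Irx5 promoter had 1.26% of 3568 reads in E3 and 8.45% of 2368 in CT (adjusted p 2.51e-39, Fisher's exact test). The Six2 promoter, of a gene that maintains kidney progenitors, had 4.02% in E3 and 9.94% in CT (adjusted p 3.86e-17). The Irx1 promoter had 2.83% in E3 and 8.20% in CT (adjusted p 2.58e-10), and the Otx1 promoter 2.64% in E3 and 4.97% in CT. Among the higher ones, apart from Pax8, Tlx3 had 7.17% in E3 and 3.29% in CT (adjusted p 5.76e-05, Fisher's exact test), Pou3f2 5.05% and 0.882%, and Pbx3 3.03% and 0.894%.

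Other transcript starts gave further calls. With every RefSeq transcript start tested in place of the gene start, Meis2 and Six3 were called lower in addition to Pax8, which was higher. Of all such windows 4.4% were lower and 3.78% higher. The start of a predicted Meis2 transcript at position 116063150 of chromosome 2 had 89 sites, with 7.98% of 2808 reads in E3 and 25.7% of 1831 in CT (adjusted p 1.86e-56, Fisher's exact test). The Six3 start at 85620834 of chromosome 17 had 42 sites, with 2.43% of 988 reads in E3 and 18.2% of 609 in CT (adjusted p 2.02e-25). This Meis2 window holds the whole Meis2 region described below, and the Six3 window holds the first part of the longest Six3 region. The windows and regions therefore share reads and are not separate findings.

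Called CpGs lay side by side in 38 regions. A region was a run of at least 4 CpGs (strands summed) called in 1 direction, with gaps of at most 200 bases. The regions were found from the calls, so their levels are a description, and neighbouring CpGs share reads. Of the 38, 31 were lower in E3, in 22 genes, and 7 higher, in 6 genes. Of the 7616 CpGs of the 49 genes, 206 (2.70%) were called CpGs of lower regions and 31 (0.407%) of higher ones, against 1.05% and 0.703% in all gene windows. CpGs that were not called lay between the called ones in many regions, and these counts leave them out. The CT median was at least 20 reads in 20 regions and at most 10 in 4. Reads of 1 strand alone made up 10 regions, and of the 27 with at least 3 sites on each strand, 8 differed by at least 10 points the same way on each. With reads thinned to 10 per CpG in both libraries, 2 regions were left, both lower in E3, in Meis2 and Otx1. Over the whole genome 303 regions were found in thinned reads and 5054 at full depth.

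**Figure D3:**
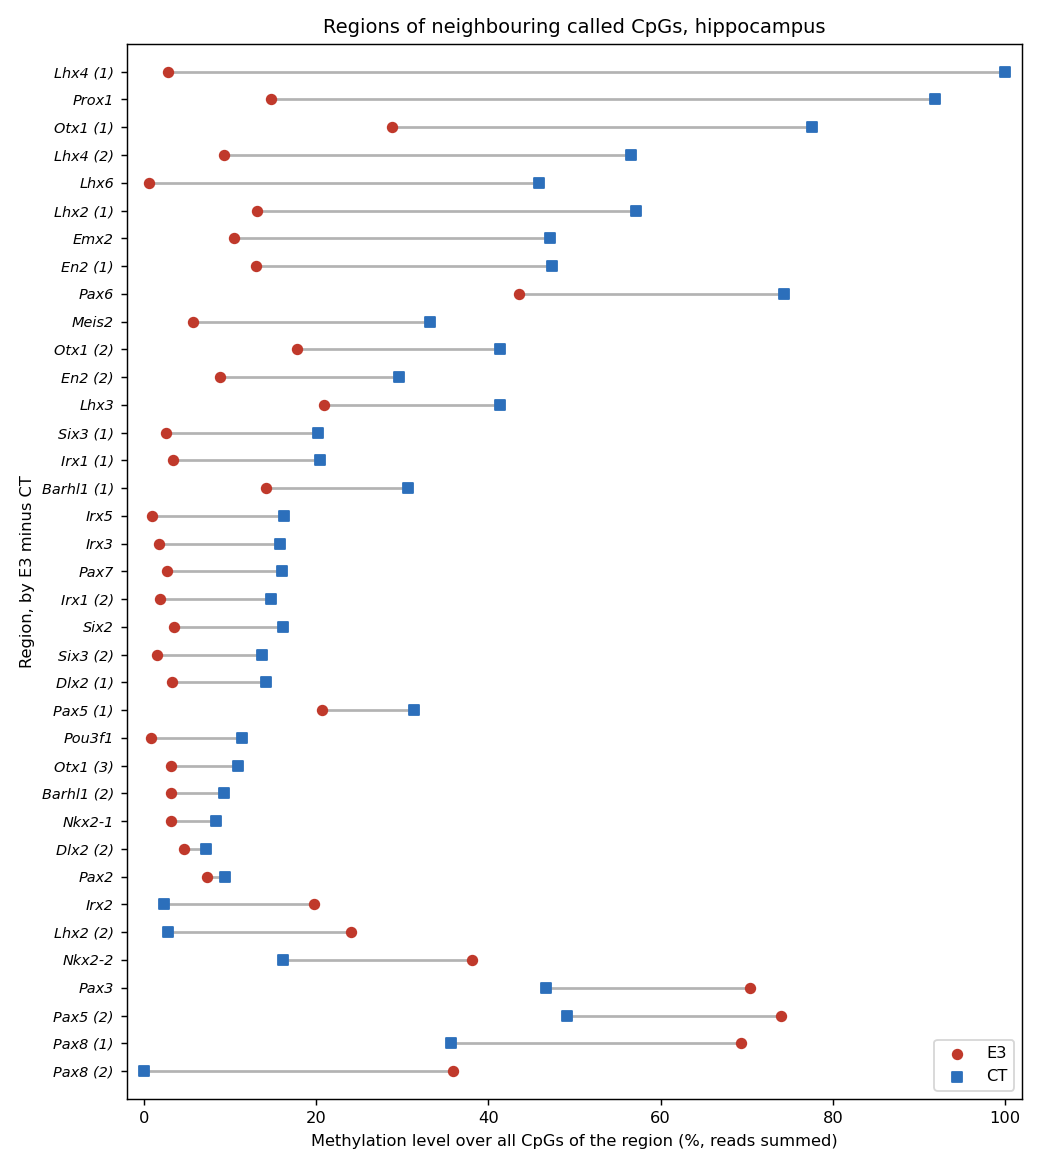
Methylation level over all CpGs of each region, with 1 of the 38 left out, in E3 (circles) and CT (squares), in percent, ordered by E3 minus CT, with a number where a gene had several. Regions lower in E3 are above and the 7 higher ones below, and most of the lower ones were under 10% in E3.

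The Meis2 region had the most called CpGs. It lies at chr2:116063265-116063397, in an exon that is coding in 22 RefSeq transcripts and untranslated in 3. Its 20 CpGs had medians of 73.5 reads in E3 and 66 in CT. E3 had 5.69% of 1353 reads and CT 33.3% of 1221, and 18 of the 20 CpGs were called lower. The levels of single CpGs ran from 0% to 17.1% in E3 and from 0% to 53.0% in CT. The CpG at 116063289 was at 0% in both. On the plus strand E3 had 10.5% and CT 35.0%, and on the minus strand E3 had 0.885% and CT 30.8%.

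**Figure D4:**
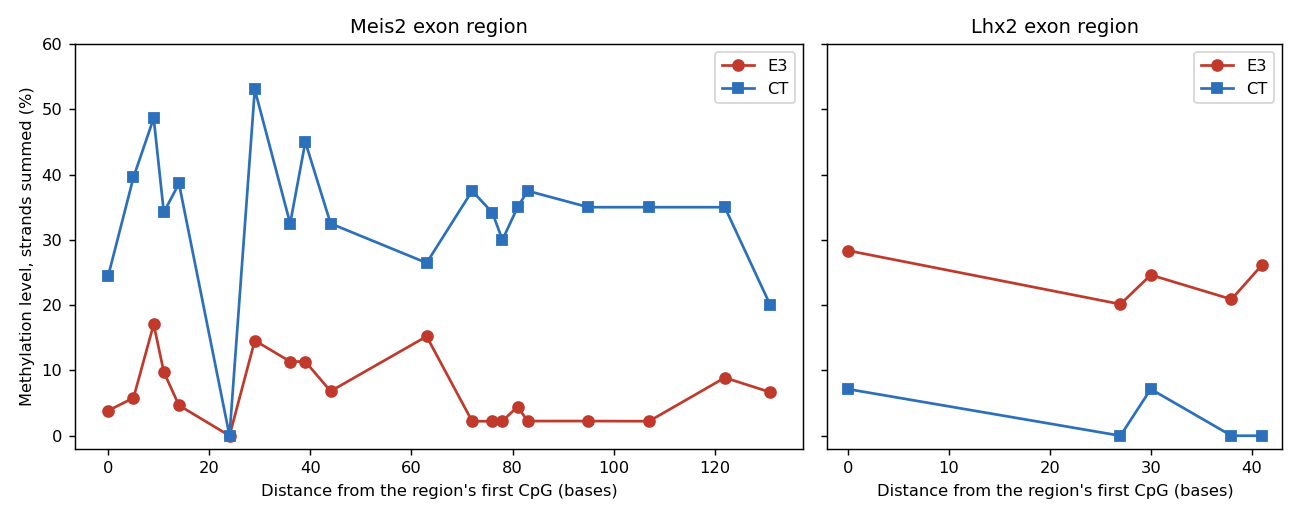
Methylation level of each CpG with strands summed (%) in E3 (circles) and CT (squares) against the distance from the first CpG of the region in bases, for the Meis2 and the Lhx2 exon region. CT lay above E3 at all Meis2 CpGs but 1, where both were at 0%, and E3 lay above CT at all 5 Lhx2 CpGs.

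The lower regions whose sequences are shown rested on fewer reads than that of Meis2, each on 1 strand alone. In the Lhx4 intron all 8 CpGs of the sequence above were called. They stood at 0% to 11.4% of 70 reads each in E3 and at 100% of 8 reads each in CT. Lhx4 encodes a LIM factor of the pituitary and motor neurons, and its second region had 9.29% in E3 and 56.6% in CT over 7 CpGs. The 4 CpGs of the Prox1 exon had 11.1% to 33.3% in E3 and 89.5% to 95% in CT, at 9 to 18 reads in E3 and 11 to 20 in CT. The 6 CpGs of the Lhx6 intron had 0.541% of 185 reads in E3 and 45.8% of 96 in CT, and each was at 37.5% or more in CT.

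Further lower regions lay in other genes of embryonic patterning. The longest was in Six3, at chr17:85621547-85622143, where 17 of 42 CpGs were called and E3 had 2.54% and CT 20.2%, with 1.66% and 17.4% on the plus strand and 3.44% and 25% on the minus strand. Irx5 had 0.976% in E3 and 16.2% in CT over 20 CpGs, Irx3 1.72% and 15.8% over 22, and Six2 3.49% and 16.2% over 28. E3 minus CT was -6.15 points on the plus strand and -18.9 on the minus strand in Irx5, and -6.66 and -19.1 in Six2. The Otx1 exon had 28.8% in E3 and 77.6% in CT over 7 CpGs, and the Emx2 intron 10.5% and 47.1% over 7. The Irx3, Otx1 exon and Emx2 regions were read on the minus strand alone, and Emx2 had 10 CT reads at each CpG. In 5 lower regions, in Pax2, Dlx2, Nkx2-1, Otx1 and Barhl1, the difference over all CpGs was under 10 points.

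The 7 higher regions were in Pax8 (2), Pax3, Pax5, Lhx2, Irx2 and Nkx2-2. In Pax8, the region at chr2:24475109-24475172 had 69.4% of 333 reads in E3 and 35.7% of 70 in CT, and the other 35.9% of 39 and 0% of 63, each on 1 strand. The former lies in the Pax8 promoter described above and shares its reads. The Irx2 exon, at chr13:72631336-72631435, had 19.8% of 248 reads in E3 and 2.29% of 175 in CT over 8 CpGs. Pax5, the B cell gene, had 74.0% of 308 reads in E3 and 49.1% of 114 in CT. The higher Pax3 and Nkx2-2 regions held on the plus strand alone. On the minus strand Pax3 had 74.1% in E3 and 77.8% in CT, and Nkx2-2 22.9% and 33.3%.

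Single sites with small p-values were found in both directions. The smallest among higher sites were at the Meis2 exon at 115867342 of chromosome 2, with 96.0% of 50 reads in E3 and 8.33% of 24 in CT (Fisher's exact p 1.94e-14, unadjusted), a Pax2 intron at 44786616 of chromosome 19, with 88.9% of 45 and 5.56% of 18, and a Cux2 intron at 121883612 of chromosome 5, with 80.0% of 30 and 3.45% of 29. The opposite strand of the Meis2 CpG had 85.0% of 40 reads in E3 and 50.0% of 8 in CT. Lower calls were led by the Nkx2-1 promoter at 56536373 of chromosome 12, with 0% of 48 reads in E3 and 87.5% of 16 in CT (Fisher's exact p 2.51e-12, unadjusted), but its opposite strand had 17.6% of 68 in E3 and 0% of 8 in CT. The Six2 promoter site at 85687713 of chromosome 17 had 0% of 62 reads in E3 and 60.0% of 30 in CT, and its opposite strand 3.61% of 83 and 33.3% of 24. The other sites among the 10 smallest p-values per direction were in Cux1, Cux2, Pax9, Pax3, Prox1 and Pax6 (higher) and in Lhx4, Otx1 and Dlx5 (lower).

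Calls on 1 strand were seldom met on the other. Of the 2745 CpGs of the 49 genes read on both strands, 513 were called on at least 1, of which 44 (8.58%) were called the same way on both and 21 in opposite ways. Over all CpGs read on both strands the share was 8.81%. At least 10 points in 1 direction on each strand were found at 138 CpGs lower and 112 higher in E3. At 198 CpGs the strands differed by at least 10 points in opposite directions. Of all 503685 CpGs read on both strands, 31978 were lower, 25309 higher and 46078 opposite, so lower CpGs led by this measure over all CpGs too.

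In the frontal cortex the deposited table lists called CpGs alone, with a level per library and no read numbers, so no interval is given. The 49 genes had 48 rows, 18 higher and 30 lower in E3 (62.5% lower, against 63.7% of all rows). A row was listed for 30 of the 49 genes (61.2%), whereas 25.5% of the 14865 genes with at least 40 hippocampus CpG sites had one. The 49 genes also had more sites, a median of 186 against 86, and the part of this in the share was not tested. The median level was 7.60% in E3 and 16.7% in CT. Rows in promoters, as the authors' annotation gives them, were 5 higher and 13 lower (72.2% lower, against 79.9% of all promoter rows). At a difference of at least 25 points the order turned, with 7 rows higher and 5 lower. The order of all rows at 25 points was not counted. The median absolute difference was 17.8 points in the 48 rows and 30.6 in all rows.

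The genes with most rows were Pax5, Lhx2, Cux2 and Meis1. Of the 5 Pax5 rows, all in introns, 4 were lower and 1 was higher, at 90.7% in E3 and 30.0% in CT. All 4 Lhx2 rows were higher and lay within the exon sequence shown above, whose ends were set to take them in. Levels were 38.9% in E3 and 13.2% in CT at 38354621, and 27.0% and 4.65% at 38354650. They were 23.8% and 0% at 38354688, and 23.1% and 5.66% at 38354799. Lhx2 encodes a LIM factor that specifies cortical identity. The 3 Cux2 rows were 2 higher, at 88.2% in E3 and 48.3% in CT and at 50.0% and 13.0%, and 1 lower. The 3 Meis1 rows were 2 lower and 1 higher. The largest difference was in a Meis2 intron at 116019721, with 7.69% in E3 and 85.7% in CT. Prox1 had 1 row higher, at 54.5% in E3 and 4.76% in CT, and 1 lower. Both Pax6 rows were higher, and both rows of Barhl1 and of Pbx3 were lower.

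**Figure D5:**
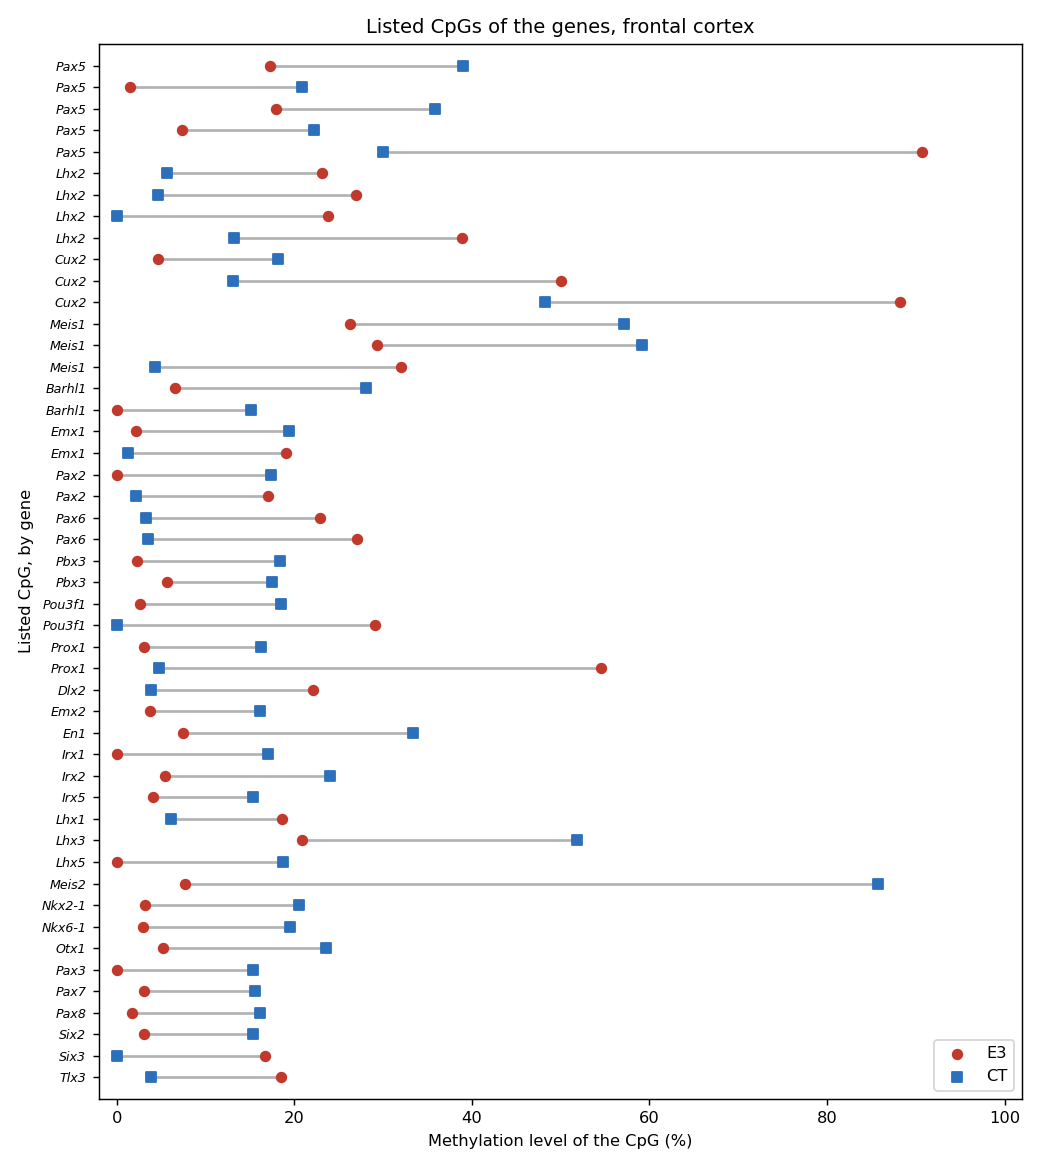
Methylation level of each of the 48 listed frontal cortex CpGs (%) in E3 (circles) and CT (squares), grouped by gene, genes with most rows on top. All 4 Lhx2 CpGs were higher in E3, and 30 of the 48 CpGs were lower.

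Of the 48 frontal cortex CpGs, 29 were measured in the hippocampus, where 12 differed in the same direction, 10 in the opposite one and 7 not at all. Of the 29, 8 were called there, while 25.7% of the 4270 frontal cortex CpGs with a gene and a hippocampus value were. Of the 8, 5 went the same way. Among all 1096 frontal cortex CpGs with a gene that were called in the hippocampus, 542 went the same way and 554 the opposite way. In the Lhx2 exon the CpG at 38354650 had 28.4% of 134 reads in E3 and 7.14% of 28 in CT in the hippocampus, and that at 38354688 had 20.9% of 134 and 0% of 28. The other Lhx2 rows, at 38354621 and 38354799, were at 0% in both hippocampus libraries, with 12 and 27 reads in E3 and 8 and 9 in CT. The 5 hippocampus CpGs of the region in between had 24% of 670 reads in E3 and 2.86% of 140 in CT, and the differences were 32.8 points on the plus strand and 8.16 on the minus strand. Over the whole gene Lhx2 had 21 lower and 10 higher hippocampus sites. Another region, of 4 CpGs on 1 strand at chr2:38352240-38352252, was lower in E3 and had 13.1% of 168 reads in E3 and 57.1% of 42 in CT. The Cux2 intron CpG at 121994306 had 44.6% of 74 reads in E3 and 0% of 23 in CT in the hippocampus. The Pax6 CpG at 105681723 had 48.8% of 43 reads in E3 and 15.0% of 20 in CT there. The Pax5 CpG at 44706368 was lower in both tissues, with 17.2% in E3 and 39.0% in CT in the frontal cortex and 19.5% of 41 and 61.1% of 18 in the hippocampus. The remaining 3 of the 8, in Emx1, Pbx3 and Six3, went opposite ways.

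Related genes outside the 49 were counted the same way. In 31 other genes of these families 246 of 4455 sites were lower and 107 higher, and 0 of 26 promoters were called. For all gene windows, 4.79% of sites were lower and 5.39% higher, and of all promoters 4.99% were lower and 4.69% higher. The promoters of 20 partner genes, which encode cofactors such as LIM-only, Eya and Dach proteins, were called higher in Lmo2, Lmo3 and Dach2 and lower in Eya3 and Dach1, of 18 tested. The Eya3 promoter had 0.482% in E3 and 19.5% in CT (adjusted p 5.60e-24, Fisher's exact test), and the Lmo3 promoter 44.3% in E3 and 15.7% in CT. Among marker genes of brain cell types, 0 of 7 neuron, 0 of 4 oligodendrocyte and 0 of 2 endothelium promoters were called. With so few promoters, a count of 0 does not set these lists apart from all promoters. Of 3 astrocyte promoters, Gfap was higher, at 67.6% in E3 and 56.4% in CT. Of 3 microglia promoters, P2ry12 was higher, at 60.5% in E3 and 40.4% in CT, and Cx3cr1 lower, at 63.0% and 97.9%. The part of the cell mix in the results above was not tested.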

How the data were processed

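Bisulfite-treated DNA was measured in 4 libraries, 1 each for E3 and CT in the frontal cortex and the hippocampus. Per the study's methods, reads were trimmed with TrimGalore 0.6.4, checked with FastQC 0.11.8, aligned to mm10 with Bismark 0.19.0 and called with MethylDackel 0.4.0. The authors' deposited hippocampus table gives total read counts (coverage) and the methylated fraction to 2 decimals. Methylated reads were recovered by multiplying each fraction by its total and rounding. At sites over 100 reads this can be off by a read. The deposited frontal cortex table gives methylated fractions of called sites and authors' p-values, which were not used. Non-CpG tables were not used.

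Positions were checked against RefSeq GRCm38.p6, whose chromosomes are those of mm10, and gene windows came from its annotation. Sites needed at least 5 reads in both libraries. Fisher's exact test (2-sided; numba 0.67.0, scipy 1.17.1) was checked on simulated data. All promoters and sites of the table were tested, and only those of the 49 genes and the lists are printed. The members and lists were chosen with earlier results of these data known. Lists were other family genes, partners and cell type markers. Named are called promoters, the 10 genes with the highest and 5 with the lowest share called among those with at least 20 sites, the 10 with most frontal cortex rows, regions, the 10 smallest p-values per direction and CpGs called in both tissues. Promoters with an adjusted p under 0.05 but less than 10 points, and transcript starts, were named after their values were seen. The values of 1 region are not reported here. Alternatives changed read minimums, thresholds, strands, depth and promoter windows.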

Additional observations from a re-analysis of the deposited data

Results flagged for a closer look

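3 CpGs were called in opposite directions in the tissues, and the difference between the tissues was not tested, since no read numbers go with the frontal cortex levels. The Emx1 CpG at 85186955 of chromosome 6, before the start of a cortical patterning gene, was 17.8 points higher in E3 in the frontal cortex, at 19.1% in E3 and 1.28% in CT, and had a difference of -36.3 points in the hippocampus, at 17.5% of 40 reads in E3 and 53.8% of 13 in CT. The Six3 CpG at 85622142 of chromosome 17, at the end of the long Six3 region, differed by 16.7 points in the frontal cortex, at 16.7% in E3 and 0% in CT, and by -29.1 points in the hippocampus, at 13.8% of 29 reads and 42.9% of 21. The Pbx3 CpG at 34371055 of chromosome 2, near the start of a gene of a Hox cofactor, differed by -11.9 points in the frontal cortex, at 5.62% in E3 and 17.5% in CT, and by 21.7 points in the hippocampus, at 21.7% of 92 reads and 0% of 50.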

How the results depend on the processing

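Each tissue has 1 library per condition, so no replicate could be left out. No paired analysis was possible because each group holds 1 library. Lower sites outnumbered higher ones in every hippocampus setting for called sites. At 10 points on each strand they also did over all CpGs read on both strands (31978 lower, 25309 higher). Called sites fell to 657 at 10 reads (428 lower), 238 at 20 reads (158 lower, 80 higher), 349 with adjusted p (262 lower, 87 higher), 201 when thinned to 10 reads (124 lower, 77 higher) and 250 at 10 points on each strand (138 lower, 112 higher). A difference of 25 points, summed strands, sites over 100 reads left out and windows without promoters stayed within 1.5 times. The promoter count was 1 in the main setting, 3 with every transcript start, and 0 for 1000 bases before the start, the mean of site levels (Pax8 at -3.43 points), 25 points or 10 points on each strand. Regions, in alternatives chosen after seeing the data, numbered 14 at 20 reads (11 lower, 3 higher) and 2 (2 lower, 0 higher) when thinned. Over the whole genome they numbered 790 lower and 534 higher at 20 reads, and 154 and 149 when thinned. Of the region differences, 6 values turned: at 10 reads Pax3 (-3.71) and Dlx2 (0.071), on the minus strand Pax3 (-3.71), Pax7 (3.87) and Nkx2-2 (-10.4), and on the plus strand En2 (5.18). Frontal cortex rows numbered 18 in promoters (5 higher, 13 lower) and 12 at 25 points (7 higher, 5 lower), where the order of all rows was not counted. The causes were not tested.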
